A study of Mus musculus with 4 samples.

Results

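The Zfp genes studied here are mouse zinc finger protein genes that share a naming root and no single function. The members were chosen by symbol alone: every gene in the gene column of either deposited table whose symbol starts with Zfp followed by a digit, leaving out Zfp36, Zfp36l1 and Zfp36l2. This gave 168 genes of the 8800 with at least 1 called site, holding 719 called sites in mouse 1 and 768 in mouse 2. All called sites, including those without a single gene name, numbered 45668 in mouse 1 and 47747 in mouse 2. Sites of N6-methyladenosine (m6A), the methyl mark on adenosines inside messenger RNA, had been mapped by m6A-eCLIP, in which RNA fragments caught by an anti-m6A antibody are sequenced and read starts locate the site. The cells were bone marrow-derived macrophages (BMDM) of 2 wild-type (WT) mice, all exposed for 3 h to lipopolysaccharide (LPS), a bacterial outer membrane component that activates macrophages. From each animal came 1 library of immunoprecipitated RNA (IP) and 1 of input RNA, and each table lists, for 1 mouse, called sites of 1 base with a score and a fold of read starts, IP over input, that are the authors' own values. The table names include NTC, a term left undefined in the labels, and no untreated cells were profiled.

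Most Zfp proteins carry C2H2 zinc fingers, short folds in which cysteines and histidines hold a zinc ion, strung in arrays that read DNA or RNA. Many also carry a KRAB domain, which recruits the corepressor Trim28 and through it the histone methyltransferase Setdb1, and KRAB zinc finger proteins are best known for silencing transposable elements. Others act outside transcription, in ribosome quality control, ubiquitin transfer or mitosis. The m6A mark is written mostly by the Mettl3 and Mettl14 enzyme pair and is best known in long exons and around stop codons, where reader proteins bind it and often shorten the life of the transcript.

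Facts of the whole series bear on these values. The tables hold no read numbers, so depth is unknown and a single fold has no error estimate. With 1 IP and 1 input library per mouse there is no replicate test, so both mice's values are printed and the Zfp genes are set beside all other genes without a p-value. Shares have exact 95% Clopper-Pearson intervals, which reflect counting error alone, and sites of 1 gene are not independent of each other. All 8 macrophage markers looked up (among them Csf1r, Cd14 and Spi1) had called sites in both mice, while none of the 5 T cell, 3 B cell and 4 fibroblast and endothelial markers had any. Of 4 neutrophil markers, S100a8, S100a9 and Ngp had called sites; the part of other cells in the sites below was not tested. Fewer cells of a type and less RNA per cell cannot be told apart in bulk samples.

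Sequence could be read for member sites close to a gene start, where the RefSeq windows of GRCm38.p6 (250 bases before to 50 after an annotated start) hold it. Such windows held 40 called member sites, and the called base was an adenosine in all 40, as in all 4737 called sites of other genes inside their gene's windows. The 10 member sites that were enriched in both mice are shown here because they are the ones whose called nucleotide can be seen in its context. Each line gives 21 bases of the transcribed strand, 5′ to 3′, with the called base in capitals; bases before an annotated start may not be part of the transcript.
Zfp384, chr6:125009228-125009248, plus strand: ccgcagcaccActtccgggtg
Zfp800, chr6:28261914-28261934, minus strand: ggggtcagtcAgtcgctccct
Zfp830, chr11:82764335-82764355, plus strand: ctcggaagctAgactcgcctg
Zfp945, chr17:22867124-22867144, minus strand: aggaaattccAcctttccctg
Zfp330, chr8:82774137-82774157, minus strand: acatagcaggAtatccggtct
Zfp472, chr17:32965806-32965826, plus strand: ttgccgccatAtttgagttcc
Zfp866, chr8:69774885-69774905, minus strand: cggccgccatAttgtggctcg
Zfp932, chr5:109996522-109996542, plus strand: ggtttcccttAgtagctgagc
Zfp771, chr7:127244548-127244568, plus strand: cagagcacccAaccgcccctc
Zfp281, chr1:136624929-136624949, plus strand: acttcccggcAgacaccgcgc

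In the first 4 of these sequences, those of Zfp384, Zfp800, Zfp830 and Zfp945, the called adenosine was the first base of an annotated transcript start, which only in Zfp830 was also the outermost base of the gene. In other genes, 280 of 1781 such sites enriched in both mice (15.7%) lay at the first base. With 10 member sites, the difference was not tested. The base of a transcript next to the cap can carry the related mark m6Am, which m6A antibodies also bind; the deposited tables do not separate the marks. The motif usually read around internal m6A, spelled here as A, G or T, then A or G, then the called A, then C, then A, C or T, was found at 0 of the 40 member sites, with an exact interval reaching 8.81%, at 2.66% of the 4737 sites of other genes, and at 7.91% of all adenosines from the start to 39 bases after it over all windows. A C stood directly before the called base in 27 of the 40 member sites (67.5%), in 61.6% of the sites of other genes and in 30.97% of all adenosines of that stretch. Among the sites enriched in both mice the order was turned, with a C before 5 of the 10 member sites (50.0%) and 72.99% of the 1781 sites of other genes. Called sites before an annotated start are counted in these shares, while the stretch used for all adenosines begins at the start. The windows show sites near starts only, and the sequence around coding and 3' UTR sites was not analysed here. Starts were known only for genes with a window, which were 138 of the 168 members, and 5' UTR sites of the other members were not counted. Of the 76 5' UTR sites of members with a window, 7 (9.21%) lay on an annotated start. Within 50 bases of an annotated start lay 40 (52.6%). The shares were 5.80% and 55.6% of 8383 such sites of other genes with a window.

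Enriched stands here for a fold of at least 8, and shared enriched where this held at the same nucleotide and strand in both mice. Of the 168 Zfp genes, 129 had called sites in both mice, 18 in mouse 1 only and 21 in mouse 2 only. Over all genes, 7827 of 8800 had called sites in both mice, a larger share, and the difference was not tested. At least 1 shared enriched site was carried by 103 of the 129 (79.8%, 71.9% to 86.4%), with a background of 86.9% over all genes called in both mice. For the other genes alone the share was 86.97% (86.2% to 87.7%). Among the 26 without one, 8 had enriched sites in each mouse at different bases and 2 had none at all, while enrichment was limited to mouse 1 in 8 genes and to mouse 2 in the other 8. Of the genes limited to mouse 1, all but Zfp362 had a highest fold of 7.70 in mouse 2, as had Zfp955b, enriched in neither. That is a ratio of 8 before the scale constant given in the next paragraph. With the limit set before the constant, 105 of the 129 carried a shared enriched site (81.4%), beside 88.3% of other genes. RefSeq holds 394 protein-coding genes with such a symbol, of which 42.6% had a called site, beside 38.5% of the other protein-coding genes.

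In mouse 1, 636 of the 719 called member sites were enriched (88.5%, 85.9% to 90.7%), with a background of 81.7% of all called sites. In mouse 2 it was 621 of 768 (80.9%, 77.9% to 83.6%), with a background of 79.1%. That gap between the mice came with the scale of the tables: mouse 1's folds are ratios times 1.003 and mouse 2's are ratios times 0.963, so that 57 member sites of mouse 2 with a ratio of exactly 8 fell below the limit. With the limit set before the constant, the shares were 88.5% in mouse 1 and 88.3% in mouse 2, beside 82.1% and 82.7% of the sites of other genes.

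**Figure D1:**
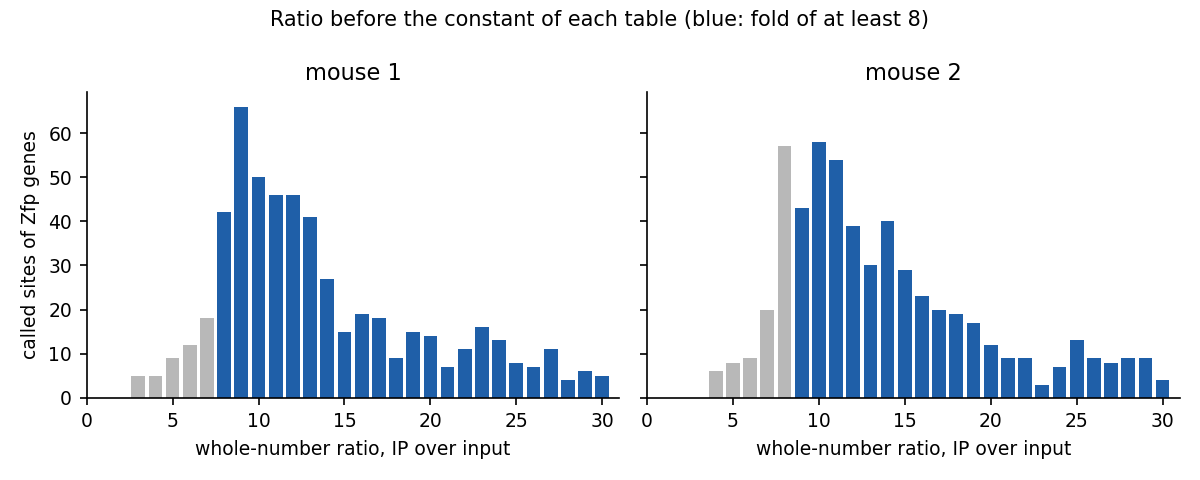
Called sites of Zfp genes (vertical axis) by the whole-number ratio of IP over input before the constant of each table (horizontal axis, up to 30), for mouse 1 on the left and mouse 2 on the right; blue bars reach a fold of at least 8 and gray bars do not. The bar at a ratio of 8 holds 42 sites and is blue in mouse 1, and holds 57 sites and is gray in mouse 2.

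The folds of the Zfp genes were mostly low. The median fold of a called member site was 13.04 in mouse 1 and 12.5 in mouse 2, beside 15.04 and 15.2 in other genes, and the median score was 22.6 and 24.4 beside 31.8 and 32.4. Before the constant, 85.5% of the member folds of mouse 1 and 86.2% of those of mouse 2 were whole numbers within 1e-06, which a denominator of 1 always gives, beside 61.6% and 61.6% in other genes. How far transcript abundance moves with these values was not tested, since the tables give no expression level. Member sites were also found again less often at the same base: 76.8% of those of mouse 1 and 71.9% of those of mouse 2 were called in the other mouse, beside 83.7% and 80.1% for other genes, a difference that was not tested.

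The 552 member sites called in both mice included 440 enriched in both (background 76.9% of all sites called in both). A further 60 reached the limit in mouse 1 alone, 39 did so in mouse 2 alone and 13 fell short in each mouse. Of 36200 such sites of other genes, 28039 were enriched in both, 2793 in mouse 1 alone, 2554 in mouse 2 alone and 2814 in neither. With the limit set before the constant of each table, 461 member sites were enriched in both mice. Over the 440, the median absolute difference between the mice was 0.36 on the log2 scale, beside 0.49 in other genes. By more than 2-fold differed 68 sites (15.5%), beside 22.6% in other genes. Both measures cover only sites that reached the limit in each mouse, and folds less than 2-fold above it cannot differ by more than 2-fold. Member folds lay closer to the limit. The median fold of enriched member sites was 13.4 in mouse 1 and 14.4 in mouse 2, beside 18.1 and 18.8 in other genes. Whether Zfp sites differ less between the mice at equal folds was not tested. The 440 sites were spread unevenly. Of the 103 genes, 25 carried 1 shared enriched site, 48 carried 2 to 4, 19 carried 5 to 9 and 11 carried at least 10. Those 11 genes held 152 of the 440 sites (34.5%). The median was 3 per gene, as in other genes with any, and the mean was 4.27 beside 4.19. Exactly 1 such site was carried by 24.3% of these Zfp genes, beside 28.2% of 6695 other genes. The shares of genes with more sites were not computed for other genes.

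**Figure D2:**
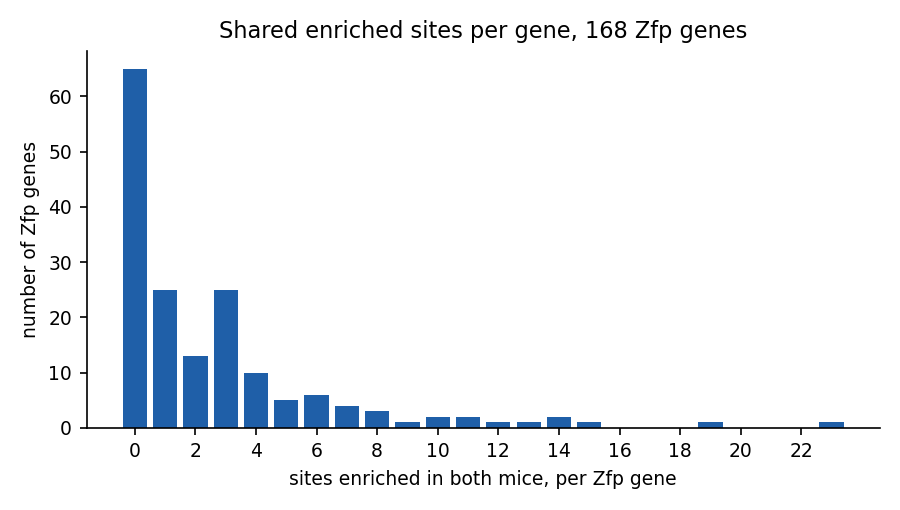
Number of Zfp genes (vertical axis) by the number of sites enriched in both mice that each carries (horizontal axis), for all 168 genes. The bar at 0 holds 65 genes, and the longest tail ends at Zfp281 with 19 sites and Zfp800 with 23.

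Coding sequence held most of the shared enriched sites of the Zfp genes: 309 of 440 (70.2%, 65.7% to 74.5%), beside 43.01% (42.4% to 43.6%) of the 28039 of other genes. The 3' UTR held 93 (21.1%, 17.4% to 25.3%) beside 38.4%, and the 5' UTR 25 (5.68%, 3.71% to 8.27%) beside 14.1%. These shares are a description, with no test of the difference. The coding share was 85.5% in the 11 genes with at least 10 sites (130 of 152) and 62.2% in those with fewer (179 of 288). At least 1 shared enriched coding site was carried by 79 genes, of which 31 also had one in the 3' UTR. Shared enriched sites lay in coding sequence only in 41 genes, in the 3' UTR only in 14 and in the 5' UTR only in 4. The split by number of sites and these gene counts were not computed for other genes. Averaged per gene, the coding share was 62.0%, beside 33.4% in other genes. The strongest shared site lay in coding sequence in 64 of the 103 genes (62.1%, 52.04% to 71.5%), beside 34.7% of 6695 other genes.

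**Figure D3:**
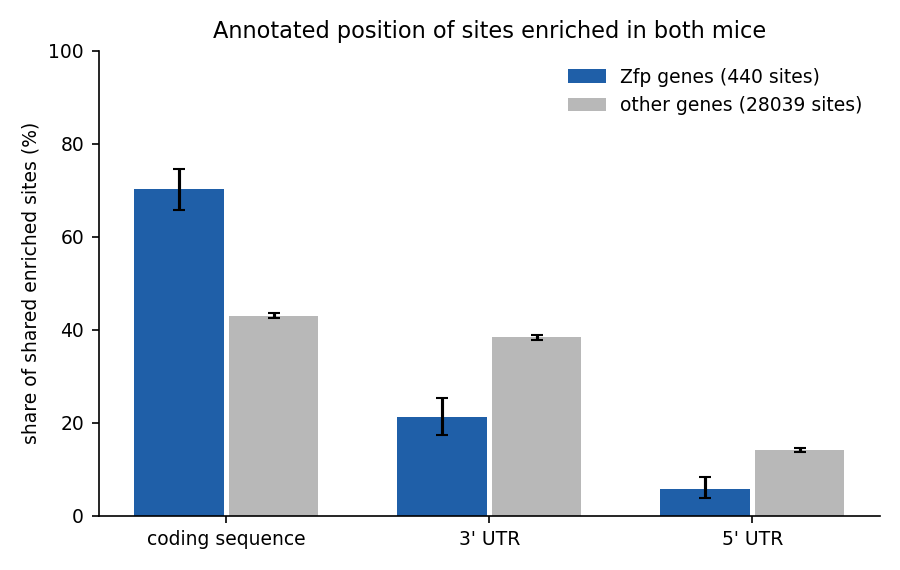
Share of shared enriched sites (percent, vertical axis) annotated as coding sequence, 3' UTR or 5' UTR, for 440 sites of Zfp genes (blue) and 28039 sites of other genes (gray); bars on the columns are exact 95% intervals. The blue column is the higher one in coding sequence (70.2% beside 43.01%) and the lower one in both UTRs.

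Called coding sites were enriched in 92.1% of 480 cases in mouse 1 and 82.7% of 504 in mouse 2, beside 87.6% and 84.8% in other genes. In mouse 2, sites with a ratio of exactly 8 before the constant counted as not enriched. Over all positions they made up 7.42% of member sites and 2.76% of sites of other genes. Shares by position were not computed with the limit set before the constant. For 3' UTR sites it was 85.9% of 156 and 85.5% of 159, beside 87.8% and 85.7%. Member sites in 5' UTRs were enriched in 69.0% of 58 cases in mouse 1 and 61.97% of 71 in mouse 2, beside 64.8% and 61.9%. Their median fold was 9.03 and 9.63, against 13.04 and 13.5 for coding sites, and other genes had the same order (10.03 and 10.1 against 17.05 and 16.4). Outside these positions 13 shared enriched sites were annotated to introns, a 5' splice site and a noncoding exon, among them 4 of Zfp865 and 3 of Zfp91.

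The strongest shared sites of the Zfp genes are described next, with the position and both folds. Zfp777, which encodes a KRAB zinc finger protein, had its strongest site in the 3' UTR on chromosome 6 at 48024541, where the folds were 160 and 182 (mouse 1 and mouse 2, in this order from here on). The other 3' UTR site, at 48024564, differed more between the mice, at 24.7 and 124. The gene carried 11 shared enriched sites, 9 of them in coding sequence.

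Zfp513, whose human counterpart is linked to inherited retinal degeneration, had its strongest site in coding sequence on chromosome 5 at 31199981 (folds 197 and 127). Its 14 shared enriched sites included 8 coding ones and 5 of the 3' UTR, the latter between 31199137 and 31199320. The 3' UTR site at 31199180 had 59.8 in mouse 1 and 203 in mouse 2, so the order of the gene's sites was not the same in both animals.

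Zfp703, a transcriptional corepressor amplified in human breast cancers, carried 14 shared enriched sites, 13 of them coding. The strongest, on chromosome 8 at 26979797, had folds of 98.8 and 202, and its neighbour at 26979768 had 132 and 128. Zfp263, which has a SCAN and a KRAB domain beside its fingers, had 15, 12 of them coding, and its strongest site on chromosome 16 at 3749532 showed 77.5 in mouse 1 against 254 in mouse 2. That fold of 254 was the highest of any member site in mouse 2. Zfp639 carried 13, all coding, and both mice gave close values at its strongest site on chromosome 3 at 32520032 (122 and 128).

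Zfp800 had the most shared enriched sites of the family, 23, of which 18 were coding. Its strongest site, on chromosome 6 at 28243214, gave the highest member fold of mouse 1, 216, against 47.6 in mouse 2. The gene's shared enriched coding sites held no common order between the mice. Mouse 1 was also higher at 28243526 (173 and 29.2) and 28243610 (170 and 32.9). Mouse 2 was higher at others, among them 28243681 (11.03 and 61.6), 28243363 (19.1 and 40.4) and 28244370 (37.1 and 71.3). The site on the annotated start of Zfp800 at 28261924, shown above, had 34.1 and 16.4. Zfp281, a factor that binds GC-rich promoters and restrains pluripotency genes, followed with 19, of which 18 were coding; its strongest lay on chromosome 1 at 136627597 (48.6 and 81.8).

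**Figure D4:**
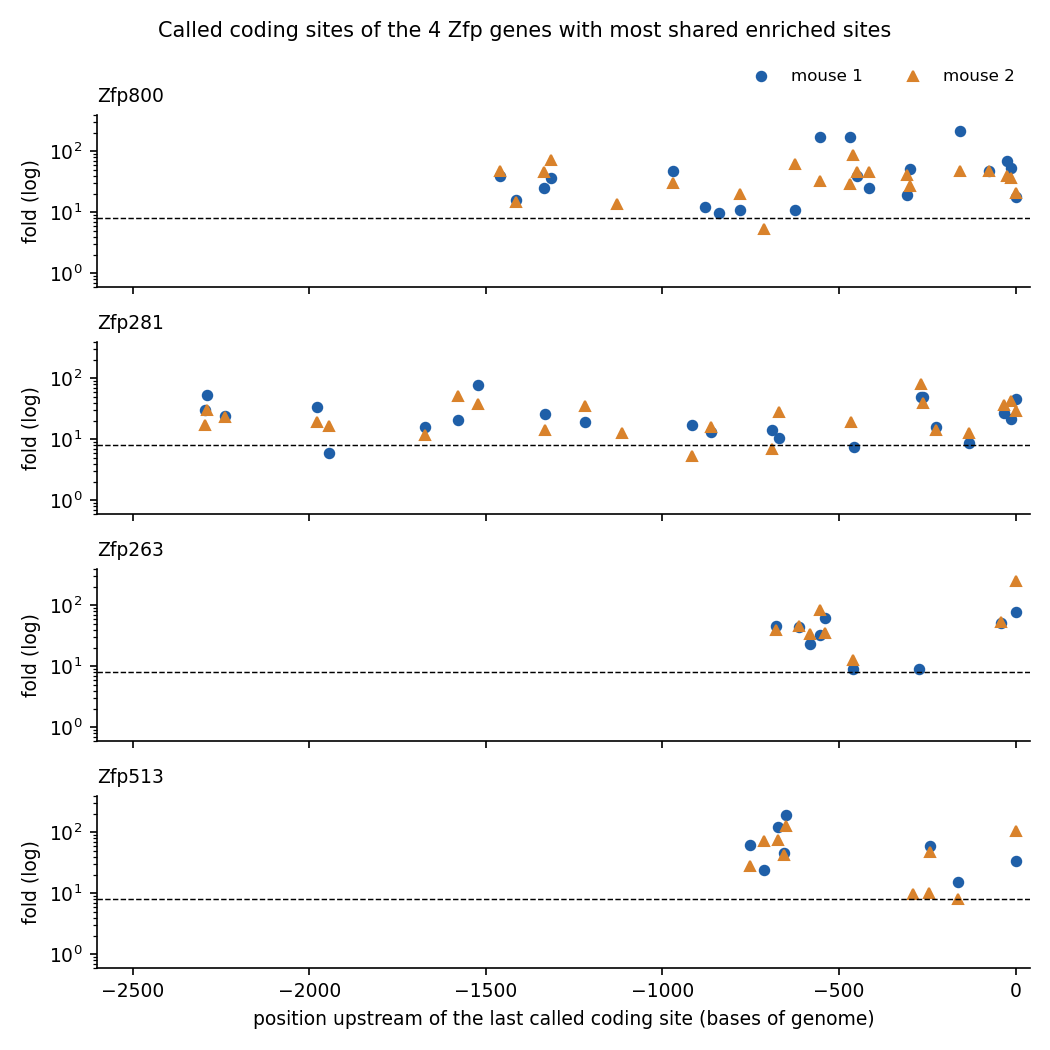
Fold of IP over input (log axis) of each called coding site in Zfp800, Zfp281, Zfp263 and Zfp513, for mouse 1 (circles) and mouse 2 (triangles), by distance in bases of genome upstream of the gene's last called coding site; the dashed line is the limit of 8. Most points lie above the line in both mice; 6 coding sites of Zfp263 and 1 of Zfp800 lie farther upstream and are not drawn.

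Among members with few sites and high folds, Zfp945 had 3 shared enriched sites and a coding site on chromosome 17 at 22852532 with 93.3 and 117. Zfp622, a factor of large ribosomal subunit maturation, had 3 coding sites, the strongest on chromosome 15 at 25985013 with 91.3 and 75.1. Zfp207, which encodes the Bub3 partner BuGZ of the mitotic spindle, carried 3 in the 3' UTR, and the strongest on chromosome 11 at 80395647 had 41.1 in mouse 1 and 108 in mouse 2.

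Zfp91, a ubiquitin ligase of the NIK kinase in noncanonical NF-kB signalling, had 4 shared enriched sites on chromosome 19. The strongest, at 12770027 and annotated to an intron of a noncoding transcript, had 33.4 and 127. A coding site of the gene at 12770103 had 96.3 in mouse 1 and was not called in mouse 2. Zfp106, an RNA-binding protein, had its strongest of 6 coding sites on chromosome 2 at 120533859 (48.6 and 82.8).

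**Figure D5:**
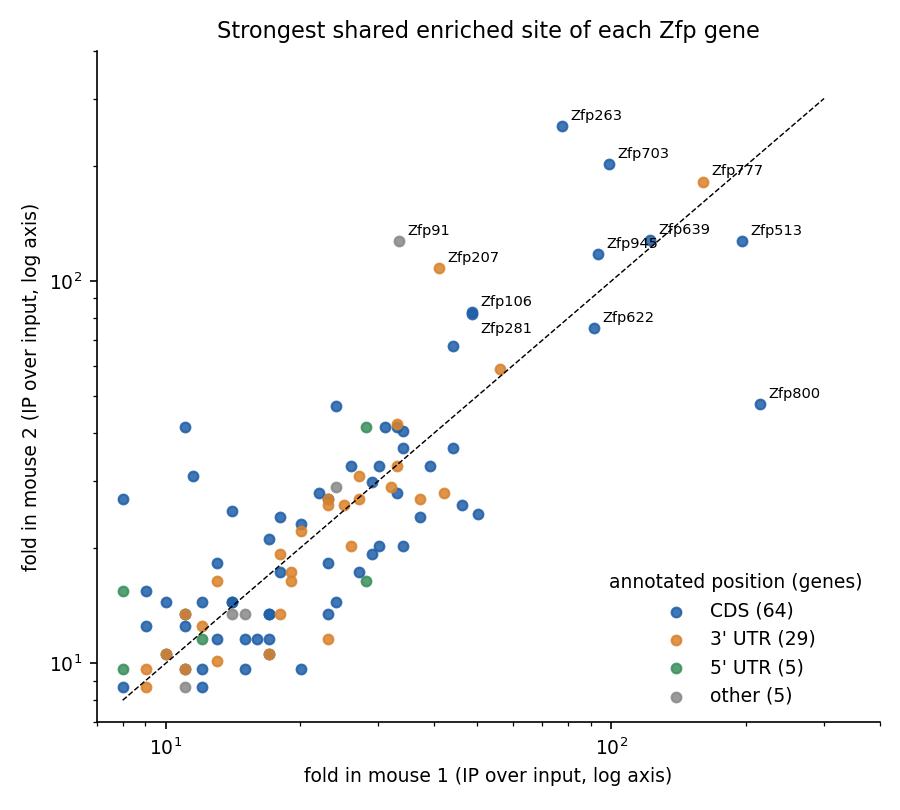
Fold of the strongest shared enriched site of each of 103 Zfp genes in mouse 1 (horizontal, log axis) and mouse 2 (vertical, log axis), coloured by annotated position; the dashed line marks equal folds and the 12 highest genes are named. Zfp263 and Zfp91 lie far above the line (77.5 and 254, 33.4 and 127) and Zfp800 far below it (216 and 47.6), while Zfp639 lies on it.

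The 12 genes above stand at the upper end of the family. A fold of at least 100 in both mice at the strongest shared site was seen in 3 genes and of at least 50 in 8, and 29 genes stayed under 16 in both mice. These counts were not made for other genes. Of the 129 Zfp genes called in both mice, 58 (45.0%) had a shared site of at least 16 in both, beside 60.5% of other genes. The median over the 103 genes was 22.1 in mouse 1 and 20.2 in mouse 2, beside 27.6 and 28.9 over 6695 other genes.

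Transcription factors and chromatin proteins with known roles ranged widely. Zfp217, a corepressor component reported to bind and restrain Mettl3, carried 12 shared enriched sites, 10 of them coding, with 46.1 and 26.0 at the strongest (chromosome 2 at 170119175). Zfp638, which recruits the HUSH complex to unintegrated retroviral DNA, carried 11, all coding (39.1 and 32.7), and Zfp148, a GC-box binding factor related to Zfp281, carried 10 (31.1 and 41.4). Zfp746, a parkin substrate that represses the gene of PGC-1 alpha, had 6, and the strongest lay in the 3' UTR (37.1 and 27.0).

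Zfp384, a nuclear matrix-associated factor, had 4 (20.1 and 22.1), Zfp407 had 4 (17.05 and 21.2) and Zfp318, which is needed for IgD expression in B cells, had 3 (17.05 and 10.6). Zfp335 had a single called site in each mouse, in the 3' UTR, with 25.1 and 26.0. Zfp292 had 1 shared enriched site (14.04 and 14.4), and so did Zfp609, a partner of the cohesin loader, just above the limit (8.02 and 8.67). Zfp260 differed from these in position: its 3 shared enriched sites were all annotated as 5' UTR, with 28.1 and 41.4 at the strongest. Among these factors Zfp217, Zfp638, Zfp746 and Zfp318 had the higher fold in mouse 1 at the strongest site, and the others had it in mouse 2.

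At the other end, 3 of the members described by function had a single called site in all. Zfp809, a KRAB zinc finger protein that silences murine leukemia virus at its primer binding site, had 1 called site in mouse 1 at a fold of 8.02 and none in mouse 2. Zfp568, a repressor of a placental Igf2 promoter, had 1 in mouse 2 at 3.85 and none in mouse 1, and Zfp266 had 1 in mouse 1 at 8.02. Zfp57 and Zfp462 had no called site.

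Members without a shared enriched site had few called sites. Zfp52 had 3 at the same bases in both mice, of which the 5' UTR site at 21535616 on chromosome 17 had 17.05 and 4.81. Zfp668 had 1 called site in mouse 1 (6.02) and 5 in mouse 2, up to 13.5. Zfp811 was enriched in mouse 1 at 2 sites (10.03 and 9.03) that had 5.30 and 7.70 in mouse 2, the latter a ratio of 8 before the constant. Zfp362, Zfp579 and Zfp560 had 1 to 3 called sites in each mouse with no fold above 16.4, and Zfp644, a partner of the G9a and GLP methyltransferases, had 2 in mouse 1 and 1 in mouse 2 at different bases.

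The 39 members called in 1 mouse only, of 168, had at most 4 called sites. Of all 8800 genes, 7827 were called in both mice. In mouse 1 the leading ones were Zfp653 with 3 sites of up to 10.03, Zfp524 with 2 and Zfp1 with 1. In mouse 2 they were Zfp706 with 4, up to 35.6 in the 3' UTR, Zfp790 with 3 and Zfp672 with 2.

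The partners of KRAB zinc finger proteins were read from a list of 17 genes. Of these, 10 had called sites in both mice and 6 of the 10 (60.0%) carried a shared enriched site, with the background of 86.9% over all genes called in both mice. Trim28 itself and the heterochromatin proteins Cbx1, Cbx3 and Cbx5 had no called site in either mouse, while Setdb1 carried 5 (strongest 26.1 and 30.8) and Morc3, a chromatin ATPase, carried 6 (114 and 132). Chd4 had 5, Smarcad1 2, and Chd3 and Uhrf1 1 each; Atf7ip, Hdac1, Tasor and Pphln1 had called sites and none enriched in both mice.

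Related zinc finger families, read by symbol, also had most of their shared enriched sites in coding sequence. All genes outside the Zfp set, which include these families, had 43.01% there. The background for carrying a shared enriched site was 86.9% of all genes called in both mice. In the Zbtb genes, which pair a BTB domain with C2H2 fingers, 23 of 27 genes called in both mice carried a shared enriched site, and 92 of their 124 sites (74.2%) were coding. Zbtb8os and Zbtb11os1, which share only the symbol, were left out of these counts after their values were seen. Zscan and Zkscan genes gave 7 of 8 genes and 12 of 18 coding sites (66.7%), and Zc3h genes, whose CCCH fingers bind RNA, gave 11 of 12 genes and 42 of 64 coding sites (65.6%). The median of the strongest fold, as the geometric mean of both mice, was 19.7 in Zbtb genes (21.4 with Zbtb8os), 15.2 in Zscan and Zkscan genes and 36.4 in Zc3h genes. It was 20.8 in Zfp genes and 28.1 in all genes outside the Zfp set.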

How the data were processed

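m6A-eCLIP tables of 2 mice, each comparing 1 IP with 1 input library of the same animal, were used as deposited. UMI-tools 0.5.1, STAR 2.6.0c, cutadapt 2.7 and the builds mm10 and hg38 appear in the submitters' processing notes. The site caller was not given in the sources used here, and neither were the annotation source or the definition of the score. Both the score (every value above 10) and the fold, a ratio of read starts, IP over input, are the authors' values, per the file headers. Coordinates were read as mm10, which GRCm38.p6 of RefSeq shares: all 168 symbols were found there and 99.3% of 935 member sites lay inside their gene.

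The end of each interval was taken as the 1-based position. Sites with joined gene names were left out (4 in mouse 1 and 7 in mouse 2 with a Zfp name; 1 gene, Zfp125, occurred only so). Shared sites took the annotation of mouse 1. The constant of a table was its commonest fold over the nearest whole number. Enriched meant a fold of at least 8 (log2 3). No test was run. Members and lists were chosen with earlier results of these data known. The rule for named genes took 12 by the mean log2 fold of both mice at the strongest shared site, the 8 with most shared enriched sites, up to 6 with most called sites and none shared enriched, listed members of known function, and up to 3 per mouse called in that mouse only. Zfp865 and the 10 printed sequences were chosen after their values were seen. Matching of sites between mice was tested on simulated tables. Python 3.11.15, pandas 2.3.3, NumPy 2.4.6, SciPy 1.17.1 and Matplotlib 3.10.9 were used.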

Additional observations from a re-analysis of the deposited data

How the results depend on the processing

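Of 54 recomputed values (6 results under up to 10 settings), 40 stayed within their counting interval, within 1.5 times a count or within the spread between mice, and 14 moved. The limit on the fold moved most. At a fold of at least 4, 97.9% and 98.3% of the called member sites of mouse 1 and mouse 2 were enriched and the median of the strongest shared fold was 18.6. At a fold of at least 16, these were 37.8%, 36.1% and 30.9, with 58 genes and 192 sites enriched in both mice. At that limit the members' shares of enriched sites lay below those of other genes (48.2% and 47.2%), while at 8 they lay above. With sites within 5 bases merged, the order also turned in mouse 2 at a fold of 8 (81.1% beside 81.8%). With a score of at least 20, 93.99% and 90.9% of the called member sites were enriched and the median was 24.9. With the limit set before the constant, 88.3% of the sites of mouse 2 were enriched. Leaving out a mouse gave medians of 17.05 to 18.3 from the other one, over 136 and 129 genes in place of 103. These values, which are among the 54, count sites enriched in the remaining mouse, whether shared or not. The share of shared enriched sites in coding sequence lay between 68.5% and 72.9% under the settings that kept both mice, and that of other genes between 41.03% and 44.96%. In mouse 1 by itself, 69.5% of the enriched member sites were coding, and in mouse 2 by itself 67.1%, beside 42.5% and 42.4% in other genes.

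No paired analysis was possible because no result comes from a test, and the deposited fold already sets the IP against the input of the same mouse. Depth is unknown, so sites missing from a table cannot be told from sites too shallow to call.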

Other observations

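Distances between called coding sites of the same gene were set against the length of a zinc finger repeat. A C2H2 finger and its linker usually span 28 residues, or 84 bases. Among 1273 pairs of called coding sites of Zfp genes that lay 42 to 713 bases of genome apart, 27 (2.12%), in 17 genes and with at most 4 in a gene, were an exact multiple of 84 bases apart. Among 46032 such pairs of other genes, which include zinc finger genes with other names, 636 (1.38%) were. Multiples of 3 made up 38.5% of the pairs of Zfp genes and 40.01% of the pairs of other genes. Pairs of 1 gene are not independent, introns can lie between sites, and the difference was not tested.

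Of the 168 Zfp genes with called sites, 74 (44.05%) lay on chromosomes 7, 13 and 17. So did 174 of all 394 protein-coding RefSeq genes with such a symbol (44.2%), and 15.6% of the other protein-coding genes with a called site.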
